A study of Homo sapiens with 12 samples.

Results

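LNCaP, an androgen-sensitive human prostate cancer line grown from a lymph node metastasis, was exposed to erastin at 5 µmol/L or to DMSO, the solvent, and its RNA was sequenced. The comparison uses the 6 LNCaP libraries of a series of 12, with 3 libraries under erastin and 3 under DMSO, chosen by cell line and treatment as labelled. Cells of both groups carry the genotype WT in the labels. The sources used here do not state how long cells were exposed. Whether the replicates are separate cultures is not stated either, so each p-value reflects variation among these libraries, possibly technical. Levels are FPKM, that is, fragments relative to the length of the gene and the depth of the library, and positions are on hg38.

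Erastin blocks system xc-, the exchanger of cystine for glutamate made of SLC7A11 and SLC3A2. Cystine supplies cysteine for glutathione, which the peroxidase GPX4 uses to detoxify lipid peroxides, and loss of this defence leads to ferroptosis, an iron-dependent cell death driven by peroxidation of polyunsaturated membrane lipids. NRF2 is the transcription factor that induces antioxidant and detoxifying genes when reactive molecules modify its inhibitor KEAP1. ATF4 is the transcription factor that induces amino acid synthesis and transport genes when amino acids are short.

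The line's identity was read from its markers. All 10 LNCaP markers were detected, and their summed level was 432 to 444 FPKM under erastin and 1152 to 1268 FPKM under DMSO. KLK3, the prostate-specific antigen gene (chr19:50854915-50860764), had 16.4, 14.5 and 18.9 FPKM under erastin, against 185, 202 and 233 FPKM under DMSO. Of 10 markers of PC3, the other line of the series, 1 passed the filter on low values, and their sum was 2.35 to 4.02 FPKM under erastin and 2.65 to 4.94 FPKM under DMSO, with DKK1 at 0 in every library. Leukocyte markers summed to 0.348 to 0.626 FPKM under erastin and 0.181 to 0.501 FPKM under DMSO, and endothelial markers to 0.287 to 0.402 FPKM under erastin and 0.733 to 0.977 FPKM under DMSO. Of 9 stromal markers, COL1A1 and TAGLN rose, while COL1A2 and DCN were at 0 in all 6 libraries.

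Reads recovered from the FPKM steps numbered 14047979 to 17668554 per library. Mitochondrial ribosomal RNA took 2.73 to 3.54% of these reads under erastin and 1.67 to 2.46% under DMSO, and the part of this difference in the results was not tested. On the first principal component, with 63.2% of the variance, the groups separated. On the second, with 25.8%, replicate 3 of erastin (-31.1) and replicate 3 of DMSO (-29.7) stood apart from the other 4 libraries, which lay between 0.945 and 32.1. The leading counts are given with and without these libraries.

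Erastin changed many genes. Among 13683 genes tested, 4312 passed the threshold (31.5%), of which 1894 were higher (13.8%) and 2418 lower (17.7%) under erastin, by limma with Benjamini-Hochberg adjusted p under 0.05. Without replicate 3 of both groups the counts were 2441 higher and 2925 lower. The labels state no pairing. Deviations of same-numbered libraries from their group means correlated at 0.254, 0.347 and 0.744, and erastin replicate 2 with DMSO replicate 1 at 0.612. Replicate number was also fitted as a block, and this blocked fit called 6893 of the 13683 genes, 3236 higher and 3657 lower. These counts over all genes are the background for the list counts below. Calls fell to 2225 without erastin replicate 1, 2588 without erastin replicate 2 and 2721 without DMSO replicate 2. The balance of the directions depended on scaling. Depth implied by the deposited FPKM was 1.00 to 1.12 times the recovered reads under erastin. Under DMSO it was 0.871 to 1.07 times, and the part of this difference in the balance was not tested. Limma voom on recovered reads gave 2550 higher and 2128 lower, scaling to the protein-coding total 2263 and 1948, and quantile normalization 2680 and 2389, with the median of all genes moved by 0.12 on the log2 scale under the first and second of these.

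Large falls outnumbered large rises. By at least 1 on the log2 scale, 320 genes rose and 936 fell, and by at least 2, 10 rose and 94 fell. The groups did not overlap for 46.5% of genes tested. Of the 13683 genes tested, 222 called genes were at 1 FPKM or more in every erastin library and below 1 FPKM in every DMSO library. A further 240 were the other way round. Such genes passed the filter only through the group where they were high, so these counts are a description. Among the genes named below, AKR1C2, AKR1C3, GPX2, ACSL4, HSPB8, TGFBR2 and KCND1 are such rises, and UHRF1 is such a fall. Among the 329 genes with a mean of 100 FPKM or more, 10 rose (3.04%) and 53 fell (16.1%), against 856 rises and 938 falls among 6145 genes under 5 FPKM. The median log2 fold change of the 329 genes was -0.36. These counts by level rest on the deposited FPKM scaling, and their dependence on scaling was not tested.

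**Figure D1:**
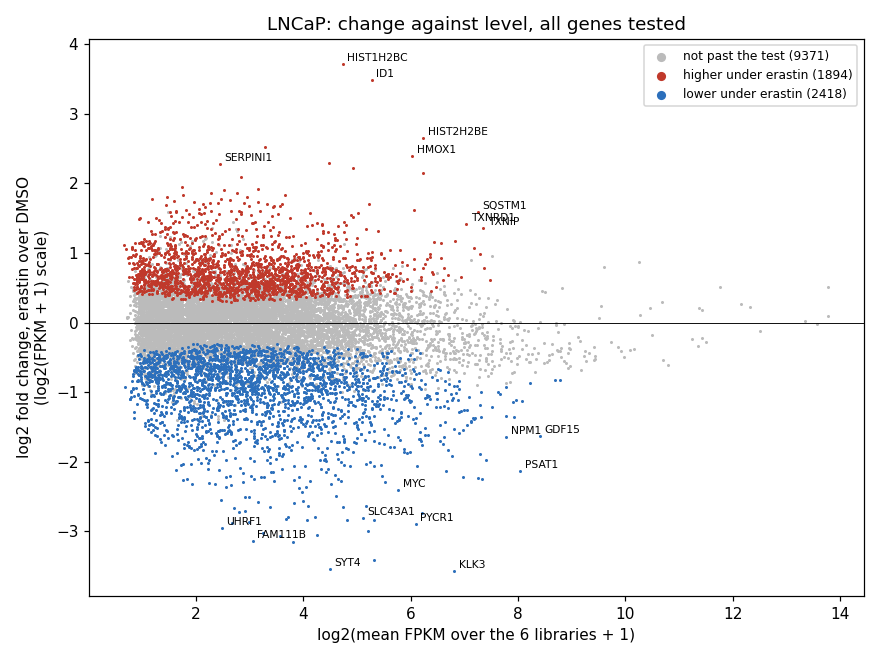
Each point is a gene, with log2(mean FPKM over the 6 libraries + 1) across and the log2 fold change of erastin over DMSO upwards, coloured by call. The 1894 rises and 2418 falls spread over the whole range, and rises are few above 100 FPKM on the deposited FPKM scaling.

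Transcription factors as a whole had shares close to those of all genes, and families were not compared by a test. Of 909 annotated factors tested, 100 rose and 161 fell, beside 13.8% and 17.7% of all genes. The families given here were chosen after their values were seen. The E2F family, which drives genes of DNA replication, had 7 falls and no rise among 10 members. HMG-box factors had 2 rises and 12 falls among 26, and bZIP factors, the family of ATF4, 3 rises and 12 falls among 35. Forkhead factors had 6 rises and 2 falls among 16, and the SMAD family 3 rises and no fall among 8.

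Many NRF2 targets rose. Of 25 tested, 12 rose and none fell, and their median log2 fold change was 0.80, against -0.02 for all genes tested. HMOX1, which encodes the heme-degrading enzyme heme oxygenase 1 (chr22:35380361-35394214), had 105, 98.9 and 122 FPKM under erastin, against 17.7, 19.6 and 22.3 FPKM under DMSO. Its log2 fold change was 2.39 ± 0.15 (SE, n = 3 each), with a limma adjusted p of 0.000241. TXNRD1, the cytosolic thioredoxin reductase, had 193, 188 and 188 FPKM under erastin, against 71.2, 71.0 and 69.9 FPKM under DMSO. The libraries of each group lay within a few FPKM of each other, and the log2 fold change was 1.41 ± 0.13 (SE), limma adjusted p = 0.000646.

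The other rises covered several arms of the response. OSGIN1, an oxidative stress-induced growth inhibitor, had 10.5, 9.20 and 11.9 FPKM under erastin, against 1.51, 1.98 and 1.67 FPKM under DMSO. SRXN1, the sulfiredoxin that reactivates peroxiredoxins, rose by 1.66 and NQO1, a quinone reductase, by 1.62 on the log2 scale. AKR1C3, a ketosteroid reductase, rose by 1.74, and its relative AKR1C2 by 1.27. AKR1C3 had 2.71 to 4.56 FPKM under erastin and 0.277 to 0.592 FPKM under DMSO. AKR1C2 had 2.24 to 3.49 FPKM under erastin and 0.507 to 0.730 FPKM under DMSO. Both passed the filter only through the erastin libraries. The heme transporter SLC48A1 rose by 1.24 and the epoxide hydrolase EPHX1 by 1.07. Both subunits of glutamate-cysteine ligase, the first step of glutathione synthesis, rose: GCLC by 0.84 and GCLM by 0.80. TXN, thioredoxin (-0.60, limma adjusted p = 0.264), did not pass the test, but was called lower in the blocked fit (limma adjusted p = 0.0180) and without replicate 3 of both groups (limma adjusted p = 0.0463). Without replicate 3 of both groups 15 targets rose and 1 fell, and in the blocked fit 16 rose and 2 fell.

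Promoters of TXNRD1 and GCLM are shown because both genes rose and carry the core of the antioxidant response element, the NRF2 site, searched as TGACNNNGC on both strands. The windows are 300 bases around the start site (RefSeq, GRCh38.p14), chr12:104215529-104215828 on the plus strand and chr1:93909381-93909680 on the minus strand, written along each gene with matches in capitals.
TXNRD1: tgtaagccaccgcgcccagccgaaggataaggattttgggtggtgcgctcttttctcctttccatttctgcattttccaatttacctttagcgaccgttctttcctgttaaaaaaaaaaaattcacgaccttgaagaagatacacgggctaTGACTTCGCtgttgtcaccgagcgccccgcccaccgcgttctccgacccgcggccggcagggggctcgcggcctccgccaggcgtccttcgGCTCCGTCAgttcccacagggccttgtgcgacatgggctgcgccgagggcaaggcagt
GCLM: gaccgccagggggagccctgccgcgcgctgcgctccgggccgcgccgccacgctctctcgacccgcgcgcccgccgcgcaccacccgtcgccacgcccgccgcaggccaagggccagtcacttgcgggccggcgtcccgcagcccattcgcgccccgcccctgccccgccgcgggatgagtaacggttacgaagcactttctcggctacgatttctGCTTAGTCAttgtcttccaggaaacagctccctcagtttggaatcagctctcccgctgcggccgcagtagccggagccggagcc
The core was present in 6 of the 19 NRF2 targets with a promoter in the table, or 31.6%, against 16.1% of all 27305 genes there. A match describes these letters in this window and no more.

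Transcripts of the erastin target and of GPX4 did not pass the test. SLC7A11 (chr4:138164097-138242349) had 26.9, 30.8 and 25.2 FPKM under erastin, against 32.2, 23.5 and 23.5 FPKM under DMSO. The groups overlapped, with a log2 fold change of 0.07 ± 0.16 (SE). SLC3A2, its heavy chain, had a log2 fold change of -0.26 ± 0.20 (SE). GPX4 (chr19:1103926-1106791) had 142, 121 and 189 FPKM under erastin, against 118, 173 and 253 FPKM under DMSO, and a log2 fold change of -0.22 ± 0.31 (SE). GPX2, a glutathione peroxidase of epithelia, rose, at 2.34 to 2.76 FPKM under erastin and 0.294 to 0.624 FPKM under DMSO.

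Other genes of cysteine and glutathione metabolism were mostly lower. Of 19 members tested, 2 rose (GCLC and GCLM) and 11 fell, with a median of -0.66. GGCT, the gamma-glutamylcyclotransferase of glutathione turnover, had 21.5, 20.2 and 33.8 FPKM under erastin, against 72.8, 82.1 and 131 FPKM under DMSO. CBS and CTH, the transsulfuration enzymes that make cysteine from methionine, fell by 1.21 and 1.18 on the log2 scale. GGT1, which cleaves glutathione outside the cell, fell by 0.96. Falls numbered 7 without erastin replicate 1 and 7 without DMSO replicate 2. Of the genes that fell, GSS, the glutathione synthetase (-0.66), passed in 3 and CHAC1, a glutathione-degrading enzyme (-0.66), in 1 of the 6 fits that left out 1 library.

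Iron and heme genes showed no common direction, with 2 rises and 3 falls among 29 tested, beside 13.8% and 17.7% of all genes. The blocked fit gave 7 rises and 10 falls, beside 3236 and 3657 of all 13683 genes. Fits that left out 1 library gave 0 to 4 rises. STEAP1 and STEAP3, of the metalloreductase family, fell by 1.39 and 1.43 on the log2 scale. The ferritin heavy chain FTH1 had 1489, 1392 and 1783 FPKM under erastin, against 614, 847 and 1165 FPKM under DMSO. Its groups did not overlap, but the change of 0.87 ± 0.30 (SE) missed the threshold, with a limma adjusted p of 0.0653. Neither the light chain FTL (0.80, limma adjusted p = 0.11) nor the transferrin receptor TFRC (-0.33, limma adjusted p = 0.0893) passed in that fit. With replicate number as a block all of these passed, at limma adjusted p of 0.0178 for FTH1, 0.0204 for FTL and 0.0384 for TFRC. FTH1 and FTL also passed without replicate 3 of both groups (limma adjusted p = 0.0180 and 0.0202) and by limma voom (adjusted p = 0.0053 and 0.0156), whereas TFRC did not (0.106 and 0.356).

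Genes of polyunsaturated lipid handling changed in both directions. FADS1 and FADS2, the desaturases of polyunsaturated fatty acid synthesis, fell by 1.56 and 1.43 on the log2 scale, and the elongase ELOVL5 by 1.29. FADS2 had 18.2, 17.0 and 17.6 FPKM under erastin, against 45.9, 52.6 and 48.8 FPKM under DMSO. CYB5R1, an oxidoreductase linked to lipid peroxidation, rose by 1.09, while ACSL4, which activates arachidonic acid, rose by 0.58 at 1.38 to 1.61 FPKM under erastin and 0.578 to 0.776 FPKM under DMSO, and passed in 3 of the 6 fits that left out 1 library. The list as a whole had 3 rises and 6 falls among 20, beside 13.8% and 17.7% of all genes tested. Its rises numbered 1 without erastin replicate 1, erastin replicate 2 or DMSO replicate 2.

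Genes of fatty acid synthesis had 4 rises and 6 falls among 18. FASN, the fatty acid synthase, fell by 1.18 and lost the call without DMSO replicate 2 and under quantile and protein-coding scaling, and the acetate-activating ACSS2 rose by 0.83. Falls numbered 2 without erastin replicate 1, 3 without erastin replicate 2 and 1 without DMSO replicate 2, and rises 1 without erastin replicate 1 and 2 without erastin replicate 2, erastin replicate 3 or DMSO replicate 2. Cholesterol genes had 1 rise and 6 falls among 24, but 1 fall without either of erastin replicates 1 and 2, 3 without either of DMSO replicates 2 and 3, and 10 in the blocked fit. SREBF2, the transcription factor of cholesterol synthesis, fell by 0.78, and missed the threshold under quantile and protein-coding scaling. Ubiquinone and other defences that do not use glutathione had 1 rise and 6 falls among 18, and 10 falls in the blocked fit. Beside the counts of these lists, 13.8% of all genes tested rose and 17.7% fell. The blocked fit called 3236 higher and 3657 lower of all 13683 genes. PDSS1 and COQ2, early enzymes of ubiquinone synthesis, fell by 1.54 and 1.28, and DHODH, a mitochondrial dehydrogenase of pyrimidine synthesis that reduces ubiquinone, by 1.04.

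**Figure D2:**
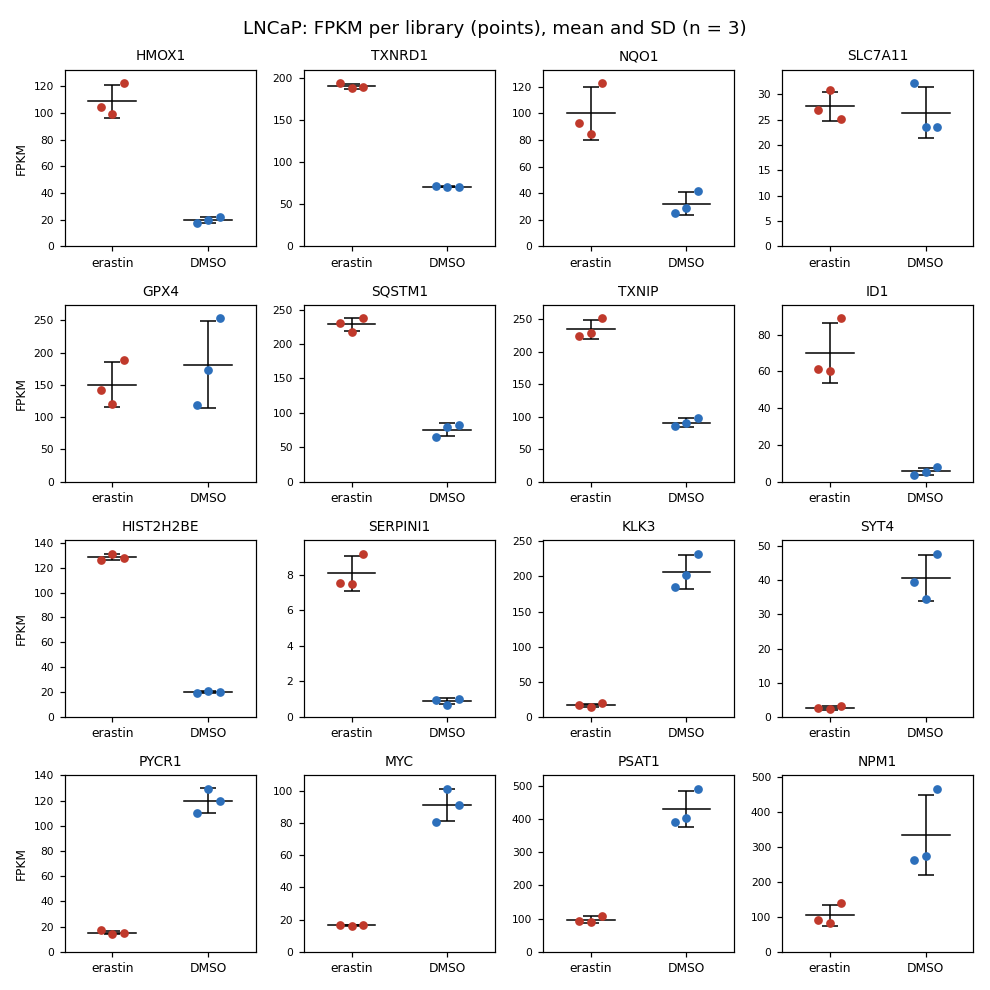
Points give FPKM of 16 genes in the 3 erastin and 3 DMSO libraries, with the mean and SD as bars. SLC7A11 and GPX4 overlap between the groups, while HMOX1, TXNRD1, SQSTM1, TXNIP, ID1, HIST2H2BE and SERPINI1 lie wholly higher and KLK3, SYT4, PYCR1, MYC, PSAT1 and NPM1 wholly lower under erastin.

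Clustered histone genes had the highest median of the lists plotted, 1.21. Of 65 listed, 36 were tested, and 22 rose and none fell, with 27 rises without replicate 3 of both groups. By class, rises were 2 of 2 H1 genes, 6 of 8 H2A, 9 of 13 H2B, 2 of 6 H3 and 3 of 7 H4 genes. Without DMSO replicate 3, and in the blocked fit, 5 H4 genes rose. H1 rises numbered 1 without erastin replicate 1, erastin replicate 3, DMSO replicate 1 or DMSO replicate 2, and H3 rises 1 without erastin replicate 1 and 4 in the blocked fit and without replicate 3 of both groups. Without DMSO replicate 1, 1 H2A gene was called lower. Summed levels of the list were 832 to 1025 FPKM under erastin and 293 to 469 FPKM under DMSO. The genes are near-identical copies, and the sources used here do not say how reads matching several of them were counted, so values of single copies are uncertain. Most clustered histone mRNAs lack a poly(A) tail, and the labels do not say whether polyadenylated RNA was selected, so the part of tail length in these levels was not tested.

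HIST1H2BC (chr6:26114873-26123926) had the largest rise of all protein-coding genes called. Its level was 44.0, 42.3 and 58.8 FPKM under erastin, against 3.44, 1.66 and 3.38 FPKM under DMSO, and its log2 fold change was 3.71 ± 0.24 (SE), limma adjusted p = 0.000255. HIST2H2BE had 126, 132 and 128 FPKM under erastin, against 18.8, 20.5 and 19.7 FPKM under DMSO. HIST1H2AC had 113, 106 and 147 FPKM under erastin, against 22.3, 23.6 and 35.5 FPKM under DMSO. In each of these genes the lowest erastin library lay above the highest DMSO library, a separation that the choice of the largest rises required. HIST1H1E, a linker histone, rose by 1.71, HIST1H3E by 1.24 and HIST1H4H by 1.58. HIST2H2AC (-0.78) and HIST1H2BL (-0.18) had negative changes that did not pass.

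The promoters of HIST1H2AC and HIST2H2BE are shown because their genes are among the strongest rises and hold the octamer ATTTGCAT, the site of the POU factor OCT1 in H2B promoters. HIST1H2AC (chr6:26123922-26124221, plus strand) faces HIST1H2BC across an overlapping window, and the same octamer serves both windows. HIST2H2BE lies on chr1:149886633-149886932, minus strand. Both windows are from RefSeq, GRCh38.p14, and capitals mark the octamer on either strand.
HIST1H2AC: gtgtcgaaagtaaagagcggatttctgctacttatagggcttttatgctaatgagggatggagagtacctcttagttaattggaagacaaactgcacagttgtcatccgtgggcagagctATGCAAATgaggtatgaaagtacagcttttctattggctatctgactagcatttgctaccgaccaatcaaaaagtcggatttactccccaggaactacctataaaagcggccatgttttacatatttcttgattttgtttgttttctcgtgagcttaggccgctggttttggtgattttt
HIST2H2BE: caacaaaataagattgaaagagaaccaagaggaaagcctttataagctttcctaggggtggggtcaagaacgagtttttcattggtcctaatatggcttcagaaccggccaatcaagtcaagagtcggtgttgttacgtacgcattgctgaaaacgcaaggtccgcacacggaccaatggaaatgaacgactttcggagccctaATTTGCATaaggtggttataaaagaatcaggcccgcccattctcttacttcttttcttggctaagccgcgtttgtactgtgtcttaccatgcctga
The octamer was present in 9 of 13 H2B genes tested and 4 of the 6 H2A genes with a promoter in the table, against 2.19% of all genes there. Whether it goes with the size of the change was not tested.

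**Figure D3:**
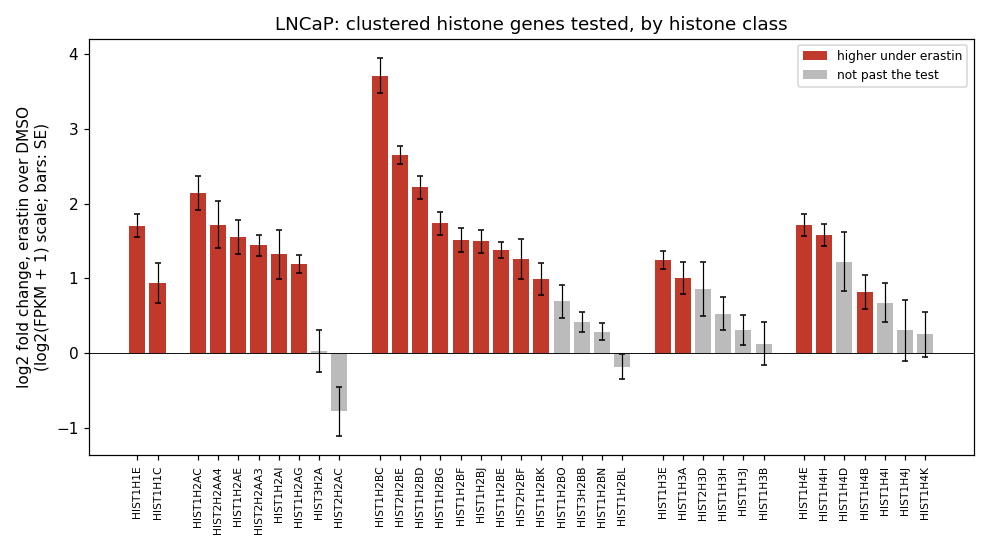
Bars give the log2 fold change of erastin over DMSO with its SE for the 36 histone genes tested, grouped as H1, H2A, H2B, H3 and H4, and coloured where past the test. H2B genes include the highest bar, HIST1H2BC at 3.71, and 2 genes lie below 0.

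The ID genes rose with inhibitors of BMP signalling. BMP ligands act through SMAD1, SMAD5 and SMAD9, whose classic targets are the ID proteins, inhibitors of basic helix-loop-helix factors. ID1 (chr20:31605283-31606515) had 61.3, 60.3 and 88.8 FPKM under erastin, against 3.47, 5.35 and 7.70 FPKM under DMSO, a log2 fold change of 3.48 ± 0.27 (SE), limma adjusted p = 0.000425. ID3 rose by 1.84 and ID2 by 1.60 on the log2 scale. The inhibitory SMAD7 and SMAD6 rose by 1.24 and 0.83, SMAD9 by 1.17 and the TGF-beta receptor TGFBR2 by 1.11. The BMP receptor BMPR1B fell by 1.35, and PMEPA1, a TGF-beta inhibitor also induced by androgen, had 9.63, 9.26 and 9.01 FPKM under erastin, against 26.9, 30.0 and 27.9 FPKM under DMSO. The list had 9 rises and 3 falls among 22, and 11 rises without replicate 3 of both groups.

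Autophagy and lysosome genes rose broadly by smaller amounts, with 23 rises and 1 fall among 49 and a median of 0.49. SQSTM1, the autophagy receptor p62 and an NRF2 target (chr5:179806398-179838078), had 231, 218 and 237 FPKM under erastin, against 64.6, 79.6 and 83.0 FPKM under DMSO. TP53INP2, which promotes autophagosome formation, had 38.4, 39.1 and 30.3 FPKM under erastin, against 7.16, 7.87 and 4.79 FPKM under DMSO. GABARAPL1, of the family conjugated to autophagosome membranes, rose by 1.43, the processing protease ATG4A by 1.23, the initiating kinase ULK1 by 1.18 and the lysosomal sialidase NEU1 by 1.42. Rises numbered 11 without erastin replicate 1 and 15 without either erastin replicate 2 or DMSO replicate 2, 33 in the blocked fit and 29 without replicate 3 of both groups. Proteasome genes had 5 rises and 1 fall among 32, beside 13.8% and 17.7% of all genes tested. They had no rise without erastin replicate 1, 3 without erastin replicate 3 and 1 without DMSO replicate 2. The blocked fit gave 12 rises, beside 3236 of all 13683 genes. Limma voom gave 9, beside 2550, and quantile normalization 14, beside 2680.

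Among 25 cell death genes, 6 rose and 5 fell, beside 13.8% and 17.7% of all genes tested. The blocked fit gave 12 rises and 9 falls, beside 3236 and 3657 of all 13683 genes. There were 3 rises without either erastin replicate 1 or erastin replicate 2. BMF, a BH3-only activator of apoptosis, had 8.27, 7.71 and 6.76 FPKM under erastin, against 1.78, 1.69 and 1.08 FPKM under DMSO. The antiapoptotic BCL2L1 rose by 0.80 and the pore-forming BAK1 by 0.75. PMAIP1, which encodes the BH3-only protein NOXA, fell by 1.61, BAX by 1.23 and BID by 1.02. TXNIP, the thioredoxin-binding alpha-arrestin that also restrains glucose uptake, had 224, 228 and 252 FPKM under erastin, against 85.1, 90.5 and 97.5 FPKM under DMSO. ARRDC4, its relative, rose by 0.94.

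Stress chaperones and metal-handling genes gave a mixed picture. HSPB8, a small heat shock protein that works with BAG3, had 4.43, 4.26 and 4.30 FPKM under erastin, against 0.701, 0.879 and 0.641 FPKM under DMSO. DNAJB4 rose by 1.43 and HSPA1B, an inducible HSP70 with a near-identical copy, by 0.75. The list had 5 rises and 1 fall among 23, 3 rises without erastin replicate 1, erastin replicate 2 or DMSO replicate 2, 8 without DMSO replicate 3 and 9 in the blocked fit. The metallothioneins MT1G and MT1F rose by 1.70 and 1.25 and the zinc exporter SLC30A1 by 0.78, while the zinc importer SLC39A10 fell by 2.15. In the endoplasmic reticulum list, 1 gene rose and 5 fell among 25, with 9 falls in the blocked fit. Falls numbered 2 without erastin replicate 1 and 3 without either erastin replicate 2 or DMSO replicate 2. Beside the counts of this list and of the stress chaperones, 13.8% of all genes tested rose and 17.7% fell. The blocked fit called 3236 higher and 3657 lower of all 13683 genes. The chaperone HSPA5 had 152, 141 and 186 FPKM under erastin, against 153, 168 and 231 FPKM under DMSO, and did not pass (-0.19, limma adjusted p = 0.541).

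Amino acid genes under ATF4 had the lowest median of the lists plotted after the replication and androgen lists. Of 31 tested, none rose and 26 fell, with a median of -1.14, 17 fell without erastin replicate 1, and 26 without replicate 3 of both groups. PYCR1, which makes proline in mitochondria (chr17:81932384-81942412), had 17.1, 14.2 and 14.7 FPKM under erastin, against 110, 129 and 120 FPKM under DMSO, a log2 fold change of -2.89 ± 0.13 (SE), limma adjusted p = 0.000138. PSAT1, of serine synthesis, had 93.0, 88.3 and 108 FPKM under erastin, against 391, 404 and 491 FPKM under DMSO. The mitochondrial folate enzymes MTHFD1L, MTHFD2 and SHMT2 fell by 2.58, 2.21 and 1.83 on the log2 scale. ATF4 itself fell by 1.14, but lost the call without erastin replicate 1, erastin replicate 2 or DMSO replicate 2.

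Transporters of amino acids had 2 rises and 9 falls among 19. SLC43A1, a transporter of large neutral amino acids, had 7.60, 7.25 and 8.07 FPKM under erastin, against 52.8, 63.0 and 62.9 FPKM under DMSO. The glycine transporter SLC6A9 fell by 1.98 and the glutamine transporter SLC1A5 by 1.45. The leucine transporter SLC7A5 was at 0.797 to 1.52 FPKM under erastin and 5.00 to 5.86 FPKM under DMSO. SLC1A1, a transporter of glutamate and cysteine, rose by 0.71, at 7.23, 7.91 and 7.63 FPKM under erastin and 4.51, 3.87 and 4.34 FPKM under DMSO. SLC38A10 rose by 1.03.

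Growth-related synthesis fell in several lists. MYC, a transcription factor that drives ribosome and nucleotide synthesis (chr8:127735434-127741434), had 16.5, 16.2 and 16.3 FPKM under erastin, against 80.7, 101 and 91.2 FPKM under DMSO. Nucleolar ribosome biogenesis had 26 falls and no rise among 33, with a median of -0.93, and 27 falls without replicate 3 of both groups. Its helicase DDX21 fell by 1.79 and the nucleolar proteins NOLC1 and NPM1 by 1.69 and 1.65. In nucleotide synthesis 20 fell and 1 rose among 25, and 22 fell without replicate 3 of both groups. The thymidylate synthase TYMS had 2.45, 2.39 and 2.10 FPKM under erastin, against 22.1, 23.8 and 20.3 FPKM under DMSO. RRM2, a subunit of ribonucleotide reductase, fell by 3.07, the thymidine kinase TK1 by 2.74 and the purine enzyme PAICS by 1.79. Of 13 polyamine genes 6 fell and 1 rose: the arginase ARG2 fell by 2.65 and the spermidine synthase SRM by 1.43, while OAZ2, an antizyme that curbs polyamine synthesis, rose by 0.85.

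Mitochondrial import and matrix genes had 20 falls and 2 rises among 40, with a median of -0.55. The import receptor TOMM20 had 30.3, 28.8 and 41.0 FPKM under erastin, against 99.7, 95.9 and 137 FPKM under DMSO. LONP1, the matrix protease, fell by 1.62, HSPA9, the import motor chaperone, by 1.38, and TOMM40, the import pore, by 1.40. CPT1A, which admits fatty acids for oxidation, rose by 0.82, and lost the call without erastin replicate 1. Falls numbered 10 without either erastin replicate 1 or 2, 11 without DMSO replicate 2, and 25 without replicate 3 of both groups. Nuclear-encoded respiratory chain genes had 4 falls and no rise among 43, 12 falls in the blocked fit, and 1 fall without erastin replicate 1, erastin replicate 2 or DMSO replicate 2. Of the 13 protein genes of the mitochondrial genome, none passed in either direction by limma or in the blocked fit, and their changes ran from -0.34 to 0.26. By limma voom on recovered reads 1 was higher. Together they took 6.92 to 7.06% of recovered reads under erastin and 5.82 to 6.59% under DMSO.

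Genes that handle RNA and DNA also fell. Splicing factors had 16 falls and 2 rises among 35, and 9 falls without either erastin replicate 1 or 2. HNRNPD, an RNA-binding protein of AU-rich elements, fell by 1.53 and the U1 protein SNRPA by 1.46. DNA repair had 27 falls and 2 rises among 41, with a median of -0.85. RAD51AP1 and RAD54L, of homologous recombination, fell by 2.65 and 2.36, FANCI by 2.27 and the exonuclease EXO1 by 2.04. LIG4, the ligase of end joining, rose by 0.74. Of 26 genes of DNA methylation and Polycomb 10 fell and none rose. UHRF1, which guides maintenance methylation, had 0.313, 0.289 and 0.209 FPKM under erastin, against 8.73, 10.3 and 7.55 FPKM under DMSO, and EZH2, the H3K27 methyltransferase, fell by 1.79.

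**Figure D4:**
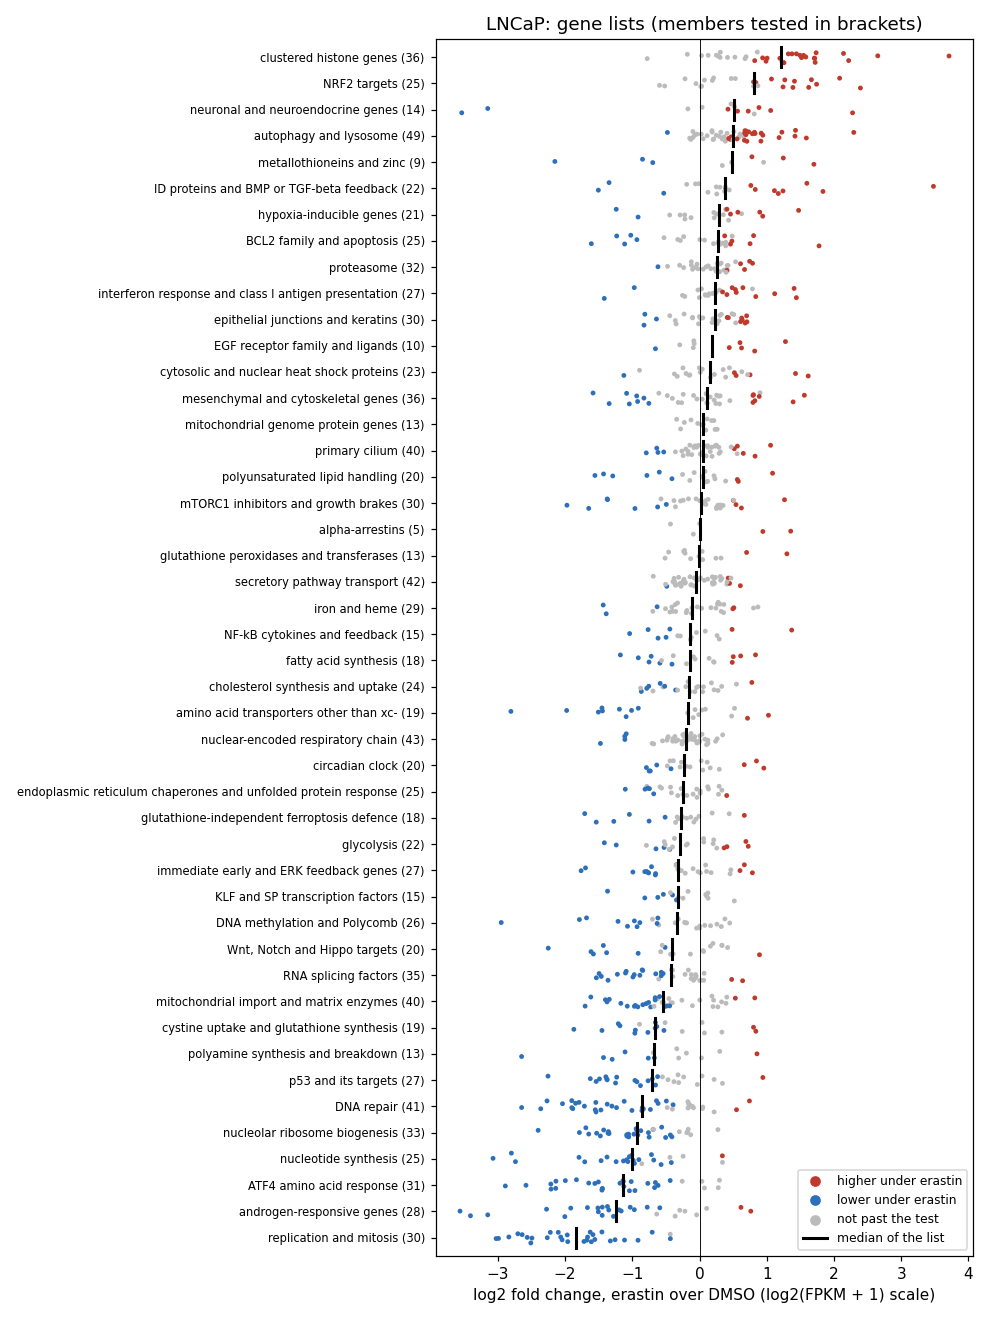
Each point is a list member tested, placed by its log2 fold change of erastin over DMSO, and black bars give list medians, with lists ordered by median. Medians run from 1.21 for clustered histone genes to -1.84 for replication and mitosis.

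The replication and androgen lists themselves had 29 falls and no rise among 30, and 20 falls and 2 rises among 28. The 2 androgen-list rises were ELL2, an elongation factor (0.76), and FOXA1, a pioneer factor of prostate cells (0.62, past the test in 1 of the 6 fits that left out 1 library).

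Signalling lists held changes in both directions. EGF rose by 1.28, HBEGF by 0.82 and TGFA by 0.63, ligands of the EGF receptor, and ERRFI1, a receptor inhibitor, fell by 0.66. That list had 5 rises and 1 fall among 10, and 3 rises without either erastin replicate 1 or 2. DUSP4, an ERK phosphatase, fell by 1.76 and the antiproliferative BTG1 by 1.70. Immediate early genes had 3 rises and 11 falls among 27, with 7 falls without DMSO replicate 2, 1 rise without erastin replicate 1 or erastin replicate 2, and 5 rises in the blocked fit. The Notch pathway genes HES6 and NRARP fell by 2.25 and 1.43 and the cyclin CCND1 by 1.58, while LGR4, an R-spondin receptor, rose by 0.89. The list of Wnt, Notch and Hippo targets had 1 rise and 7 falls among 20, 11 falls in the blocked fit, and a median of -0.41. TNFRSF12A, the receptor of TWEAK, rose by 1.37.

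Interferon and antigen presentation genes had 10 rises and 2 falls among 27. IRF7, an interferon regulatory factor, had 27.9, 25.9 and 32.6 FPKM under erastin, against 8.72, 10.6 and 11.4 FPKM under DMSO. IFIT2 rose by 1.44, and OAS3 fell by 1.42. Rises numbered 5 without either erastin replicate 1 or DMSO replicate 2, and 6 without either erastin replicate 2 or 3. Among hypoxia genes, 6 of 21 rose and 2 fell, with 10 rises in the blocked fit and 3 without either erastin replicate 1 or 2. The collagen hydroxylase P4HA2 rose by 1.47 and EGLN1, the oxygen sensor of HIF, by 0.94, while VEGFA fell by 0.91 and PDK1 by 1.24. In the list of p53 and its targets 16 of 27 fell and 1 rose. The 1 annotated factor of the P53 family that was tested was called lower (-2.25). GDF15, a stress-induced cytokine, had 159, 146 and 184 FPKM under erastin, against 366, 555 and 623 FPKM under DMSO.

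Cell identity and cytoskeleton genes showed changes within families. SERPINI1, the neuronal protease inhibitor neuroserpin (chr3:167735243-167825568), had 7.56, 7.47 and 9.20 FPKM under erastin, against 0.939, 0.676 and 1.00 FPKM under DMSO. SYT4, a vesicle protein of neuroendocrine cells (chr18:43267878-43277650), went the other way, with 2.51, 2.13 and 3.12 FPKM under erastin, against 39.6, 34.6 and 47.9 FPKM under DMSO. Of 37 neuronal and neuroendocrine genes listed, 14 were tested, and 6 rose and 2 fell, with 10 rises in the blocked fit. Tubulin isotypes split. TUBA1A and TUBB2A rose by 1.56 and 1.39, whereas TUBB and TUBA1B, present at over 100 FPKM under DMSO, fell by 1.34 and 1.08. TUBB had 121, 114 and 132 FPKM under erastin, against 275, 307 and 357 FPKM under DMSO.

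Epithelial junction genes had 8 rises and 3 falls among 30, 13 rises in the blocked fit, 1 without erastin replicate 1 and 3 without either erastin replicate 2 or DMSO replicate 2. The epithelial factor ELF3 rose by 0.68 and the splicing regulator ESRP1 fell by 0.83. Mesenchymal and cytoskeletal genes had 7 rises and 8 falls among 36, 11 rises in the blocked fit, and FN1, fibronectin, fell by 1.58. Secretory pathway transport had 3 rises and 1 fall among 42, 8 rises and 10 falls in the blocked fit, and 1 rise without any of erastin replicates 1, 2 and 3 or DMSO replicates 1 and 2, left out singly. Primary cilium genes had 5 rises and 4 falls among 40, 8 rises in the blocked fit, and 3 rises without erastin replicate 1, erastin replicate 2 or DMSO replicate 2. Glycolysis had 4 rises and 5 falls among 22, with 11 falls in the blocked fit. Without erastin replicate 1 it had 1 rise and 2 falls, without erastin replicate 2, 2 and 2, without erastin replicate 3, 2 and 3, and without DMSO replicate 2, 2 falls. Its median of -0.29 turned to 0.06 under another scaling. HK2, a hexokinase, fell by 1.42. Beside the counts of these lists, 13.8% of all genes tested rose and 17.7% fell. The blocked fit called 3236 higher and 3657 lower of all 13683 genes.

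Single members are given for growth brakes, KLF and SP factors and clock genes. Growth brakes had 4 rises and 7 falls among 30, and 8 and 11 in the blocked fit. KLF and SP factors had no rise and 6 falls among 15. Clock genes had 3 rises and 5 falls among 20, with 9 falls in the blocked fit. Fits that left out 1 library gave 0 to 4 rises of growth brakes. They gave 2 to 6 falls of KLF and SP factors and 2 to 8 falls of clock genes. EIF4EBP1, a repressor of translation initiation, had 62.8, 49.7 and 89.2 FPKM under erastin, against 182, 262 and 366 FPKM under DMSO. DDIT4, an inhibitor of mTORC1, fell by 1.65, and KLF15, a nutrient-regulated factor, by 1.37. Of the growth brakes, CASTOR2 rose by 1.26, and passed in 1 of the 6 fits that left out 1 library. The clock repressor CRY2 rose by 0.96, and the clock output factor HLF fell by 0.79. Beside the counts of these lists, 13.8% of all genes tested rose and 17.7% fell. The blocked fit called 3236 higher and 3657 lower of all 13683 genes.

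The protein-coding genes with the largest changes include several outside these lists. NAP1L3, a nucleosome assembly protein relative, had 10.1, 9.66 and 13.4 FPKM under erastin, against 2.23, 2.36 and 2.73 FPKM under DMSO. CLU, the extracellular chaperone clusterin, rose by 1.77, the potassium channel gene KCND1 by 1.81 and KIAA0513 by 1.91. Among the falls, ADAMTS1, a secreted metalloprotease, had 5.51, 6.61 and 5.61 FPKM under erastin, against 52.8, 50.4 and 42.0 FPKM under DMSO. LMNB1, the nuclear lamin B1, fell by 2.84 and DIO3, which inactivates thyroid hormone, by 2.82. FAM111B, a serine protease, fell by 3.13 and the histone chaperone ASF1B by 2.79.

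**Figure D5:**
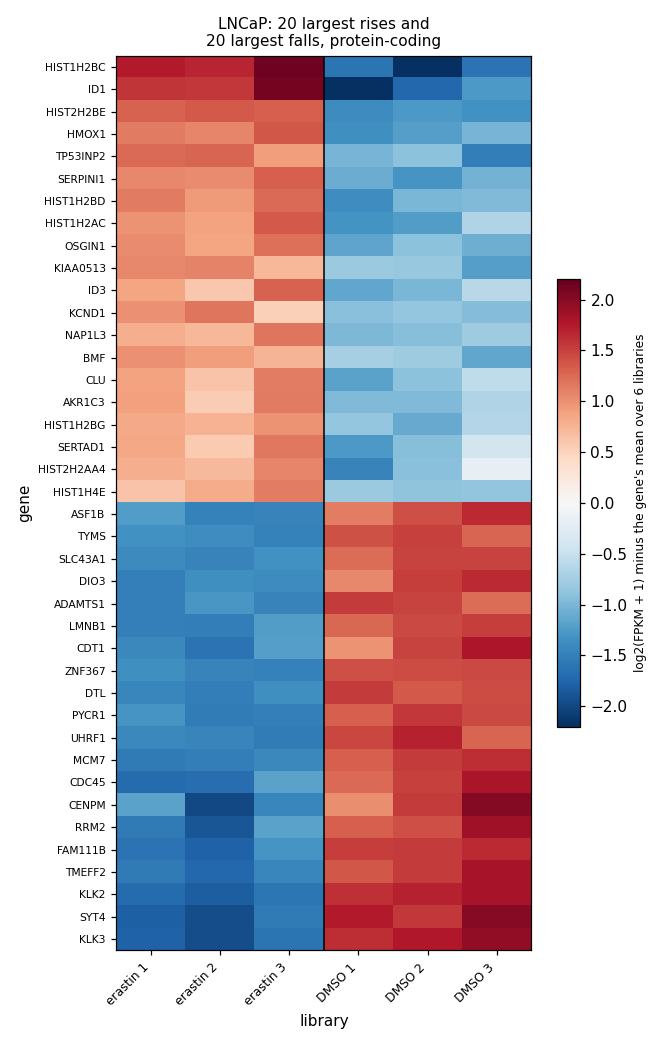
Rows are protein-coding genes, the 20 highest and the 20 lowest log2 fold changes among called genes whose groups do not overlap, columns the 3 erastin and 3 DMSO libraries, and colour the log2(FPKM + 1) value minus the gene's mean. Rows run from HIST1H2BC (3.71) to KLK3 (-3.56), and the separation of the groups in each row follows from this choice of genes.

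By absolute level, among genes past the test, SQSTM1 gained most, 153 FPKM on average, followed by TXNIP with 144 and TXNRD1 with 119. Larger mean differences in genes that did not pass include those of FTH1 (679) and FTL (399). The largest losses among genes past the test were in GDF15 (-352.0 FPKM on average, erastin minus DMSO), PSAT1 and SLC25A6, an ADP/ATP carrier. SLC25A6 had 317, 275 and 357 FPKM under erastin, against 443, 576 and 683 FPKM under DMSO, and passed in 1 of the 6 fits that left out 1 library.

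Noncoding genes were tested in smaller numbers. Of 549 lincRNAs tested, 67 rose (12.2%) and 103 fell (18.8%), shares near the 13.8% and 17.7% of all genes tested. Of 460 processed pseudogenes 14 rose (3.04%) and 75 fell (16.3%). MIR22HG, host of the miRNA miR-22 (chr17:1711493-1717174), had 9.96, 8.50 and 12.9 FPKM under erastin, against 1.90, 3.12 and 2.37 FPKM under DMSO. AP003068.4, with no annotated function, rose by 2.52 on the log2 scale. TYMSOS, whose gene overlaps the start of TYMS on the other strand, fell by 2.24, and without a stated strand setting its reads cannot be told from those of TYMS. RF01183, a small nucleolar RNA, was listed at 3.47, 2.75 and 1.41 FPKM in the erastin libraries and at 0 in all 3 DMSO libraries. Its gene is 80 bases long, so these levels rest on few reads, and it passed the filter only through the erastin libraries.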

How the data were processed

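RNA of LNCaP cells was extracted with TRIzol, and an Illumina TruSeq RNA kit was used for libraries, per the labels' protocols. The submitters' processing notes name HISAT2 2.0.5 and hg38. No source used here names the counting tool, its strand setting or its handling of multiply matching reads. The authors deposited FPKM values for 58735 genes with their lengths. Multiplied by length, 100% of FPKM values above 0 fell on whole steps in their library, with a tolerance of 0.1 reads, so reads could be recovered.

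Genes reaching 1 FPKM in 3 or more of the 6 libraries were kept (13683). Values were log2(FPKM + 1), a scale that understates changes of low genes, and all fold changes are on it. Erastin was set against DMSO with limma 3.58.1 in R 4.3.3 (variance trend, two-sided, Benjamini-Hochberg over all genes kept, threshold 0.05). The same fit was run on simulated reads with a common spread for all genes and no variation shared by replicate number. That run does not test the fit under the replicate variation seen here. Figures used matplotlib 3.10.9. The deposited FPKM carry no count test, so limma voom on the recovered reads was an alternative.

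The genes and lists were chosen with earlier results of these data known, so list counts are descriptions. Genes named are, among called genes whose groups do not overlap, the 20 largest rises and falls of protein-coding genes, the 8 of other biotypes, the 10 largest in mean FPKM, up to 5 members of each list, members needed to describe a list, and 16 genes whatever their result. Of 312 such genes called, 232 stayed called in all 6 fits without 1 library. Not every gene that meets the rule is described.

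Replicate numbers come from the labels' titles. Deviations of same-numbered libraries from their group means correlated at 0.254, 0.347 and 0.744, and those of different numbers reached 0.612. The labels state no pairing, so the main fit was unpaired and the block was an alternative. No replicates were duplicates: their lowest chi-square, divided by its degrees of freedom, was 5.99. Alternatives were the pseudocount, the filter, 3 scalings, voom, the block, and leaving out libraries singly. Chosen after seeing the data were leaving out replicate 3 of both groups, and subtracting a lowess curve (span 0.5) of gene length, with or without the block.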

Additional observations from a re-analysis of the deposited data

How the results depend on the processing

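Pseudocounts of 0.1 and 0.5, no filter, the 3 scalings, voom, removal of a gene length trend and leaving out replicate 3 of both groups kept the count of called genes within 1.5 times that reported. A filter at a mean of 5 FPKM gave 2572 calls (1065 higher, 1507 lower), with fewer genes tested. The replicate block gave 6893 (3236 higher, 3657 lower), and with the length trend removed 7337 (3689 higher, 3648 lower). The block's list counts stand in the report where they move a count given there by over 1.5 times, apart from counts of 2 or fewer that moved by at most 3 genes. Leaving out 1 library gave 2225 to 4209 calls, 832 to 1907 higher and 1393 to 2363 lower; a fit with 2 libraries in a group pools the spread over both. The cause was not tested.

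Among genes named, 5460 of 5844 results under alternatives kept their direction and their side of the threshold, 323 lost the call and 51 gained it. Directions turned only in genes that had not passed: SLC7A11 (-0.00564 to 0.218 with 1 library left out), GAPDH (-0.0773 to 0.229), GSR (-0.0423 to 0.122), GPX4 (-0.496 to 0.05005, and 0.138 under quantile normalization), HSPA5 (0.17 under quantile normalization) and SLC3A2 (0.0317 under quantile normalization). Depth, 14047979 to 17668554 reads, limits genes near 1 FPKM most.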
